A study of Mus musculus with 6 samples.

Results

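The 10 genes described here form the IL-10 and TGF-beta regulatory axis, namely the ligand genes Il10, Tgfb1, Tgfb2 and Tgfb3, the receptor genes Il10ra, Il10rb, Tgfbr1 and Tgfbr2, the activator gene Itgb8 and the inhibitor gene Smad7. They were chosen by symbol, and all 10 were found among the 26110 genes of the deposited table. Bulk RNA-seq had been carried out on MHCII hi cells sorted from the muscularis externa (ME) of the small bowel, with 3 libraries of CX3CR1- and 3 libraries of CX3CR1+ cells. Both populations came from untreated mice of genotype CX3CR1+/GFP on a C57BL/6 background, in which GFP in place of 1 Cx3cr1 allele reports expression of that gene. The mice of the study were female, and their age is not given in the sources used here. Tissue from several mice was combined before the sort. Whether each library had a pool of its own is not stated, so that p-values measure the spread between libraries, which may be technical. The sample labels call the cells dendritic cells, whereas the study calls them macrophages.

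IL-10 is a cytokine that dampens inflammatory gene expression in macrophages and dendritic cells. It binds a receptor of a specific chain, encoded by Il10ra, and a chain shared with related cytokines, encoded by Il10rb, and signals through the kinases JAK1 and TYK2 to STAT3. TGF-beta is secreted in a latent form, is released by integrins and other activators, and signals through a complex of TGFBR1 and TGFBR2 to SMAD proteins, while SMAD7 is induced by the signal and inhibits it. In the gut both cytokines are known for restraining immune responses to the microbiota, and resident macrophages are known both to produce IL-10 and to respond to it.

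The values are signal normalized between libraries by the authors, not read counts. The depth was estimated from a step in the values that was taken as 1 read. It was about 11927342, 6517520 and 11331832 reads for CX3CR1- and 17616771, 10014171 and 5346379 reads for CX3CR1+ replicates 1, 2 and 3. A level of 3 reads, which covers counting error only, corresponded to normalized values from 1.39 to 5.36. Mitochondrial genes took 54.9, 47.5 and 52.5% of the normalized total in CX3CR1- replicates 1, 2 and 3, and 21.2, 19.5 and 18.1% in the CX3CR1+ replicates. Correlations were computed across genes, so that no p is given. Pearson's r was lowest within a population for CX3CR1- replicates 2 and 3 at 0.844, whereas the CX3CR1+ libraries correlated at 0.953 or more. Differences are given as log2 fold changes (log2FC) of CX3CR1- over CX3CR1+ cells on the log2(value + 1) scale, with standard errors (SE) from limma. A gene was called where the size of its log2FC reached 1 and its Benjamini-Hochberg adjusted p, taken over the whole set of tested genes, did not exceed 0.05.

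The IL-10 genes and the TGF-beta receptor genes were lower in CX3CR1- cells. Of the 10 genes, 9 had a 6-library mean of 10 or more and were tested. Il10, Il10ra, Il10rb, Tgfbr1 and Tgfbr2 were called lower, which makes 5 lower genes where 8.15% of all 17812 tested genes were called lower. Tgfb2 was the 1 gene called higher, where 12.2% of all tested genes were called higher. Together 6 genes were called, against 20.4% of all tested genes. Tgfb1, Tgfb3 and Smad7 were not called, and Itgb8 was not tested. The values of the populations did not overlap for 7 genes, against 40.0% of all tested genes, and for each of these 7 an exact two-sided permutation test gave p = 0.1, which is as low as a comparison of 3 with 3 libraries can go. The median log2FC of the 9 tested genes was -1.59, against -0.0035 over all tested genes. In bulk RNA, fewer cells of a type and less RNA per cell cannot be told apart.

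**Figure D1:**
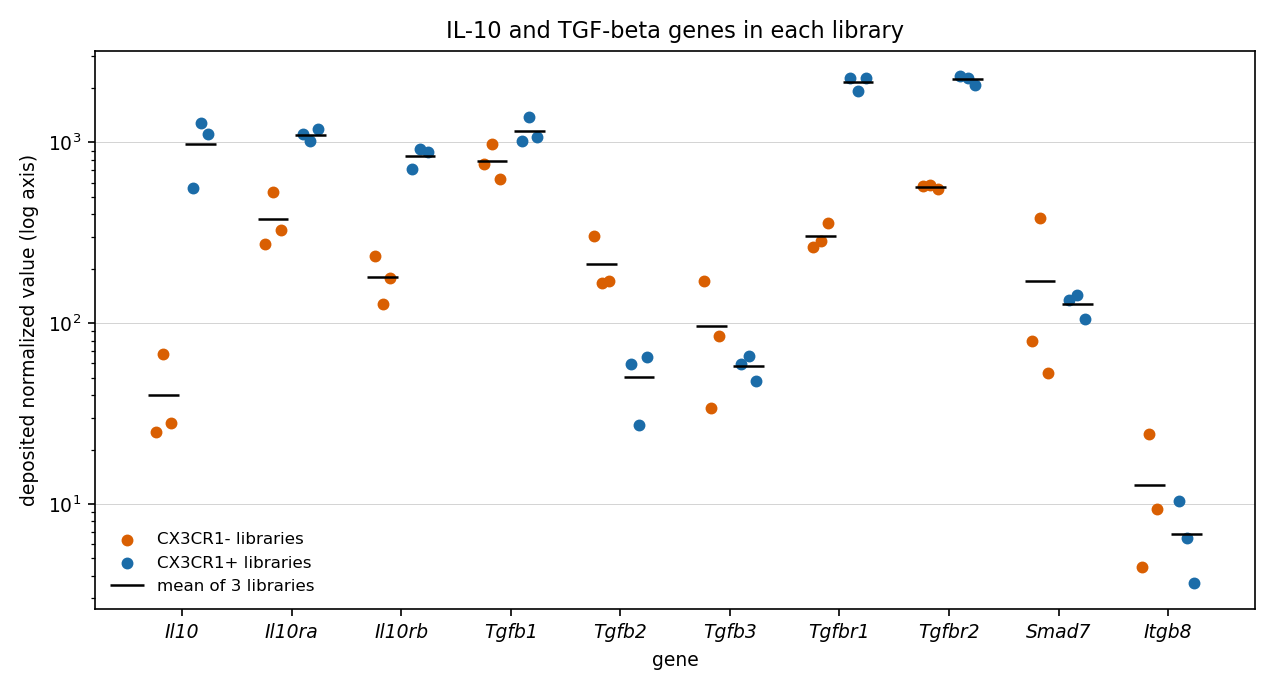
Deposited normalized values (log axis) of the 10 IL-10 and TGF-beta genes in 3 CX3CR1- libraries (orange) and 3 CX3CR1+ libraries (blue), with the mean of each population as a black line. For Il10 the CX3CR1- libraries lie between 25.0 and 68.0 and the CX3CR1+ libraries between 559.6 and 1287, whereas for Smad7 CX3CR1- replicate 2 lies above and the other CX3CR1- libraries below all CX3CR1+ libraries.

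Il10, the ligand gene of the IL-10 arm (chr1:131019845-131024974, plus strand, GRCm38), had normalized values of 25.0, 68.0 and 27.9 in CX3CR1- replicates 1, 2 and 3, and of 559.6, 1287 and 1110.5 in CX3CR1+ replicates 1, 2 and 3. Every CX3CR1+ library lay far above every CX3CR1- library, with replicate 2 the highest of the CX3CR1- and replicate 1 the lowest of the CX3CR1+ libraries. The mean was 24.5-fold lower in CX3CR1- cells, at 40.3 ± 24.0 against 986 ± 379 (SD, n = 3 each). This gave a log2FC of -4.64 (SE 0.42, adjusted p = 3.67e-05, limma with Benjamini-Hochberg correction). Ordered from the most negative log2FC, Il10 was gene 10 of 17812. Without CX3CR1- replicate 2 its log2FC was -5.08. The transcript shares no 31-mer with another gene.

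The receptor chain genes of IL-10 were lower too, by less than Il10 itself. Il10ra, the gene of the ligand-specific chain (chr9:45253837-45269149, minus strand), was at 275.9, 532 and 329 in CX3CR1- and at 1107, 1014 and 1183 in CX3CR1+ replicates 1, 2 and 3. The populations did not overlap, and CX3CR1- replicate 2 was again the highest of its population. The log2FC of Il10ra was -1.59 (SE 0.24, adjusted p = 9.60e-04 in limma after Benjamini-Hochberg correction), with means of 379 ± 135 and 1101 ± 84.5 (SD, n = 3 each).

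Il10rb, the gene of the chain shared with other receptors of the family (chr16:91406164-91425834, plus strand), was at 234, 127 and 179 in CX3CR1- and at 715, 917 and 890.2 in CX3CR1+ replicates 1, 2 and 3. Here CX3CR1- replicate 2 was the lowest library, and the populations did not overlap. The means were 180.05 ± 53.6 and 841 ± 110 (SD, n = 3 each), a log2FC of -2.25 (SE 0.25, adjusted p = 1.29e-04 in limma after Benjamini-Hochberg correction). Of the 31-mers of Il10rb, 14.2% also occur in Gm21970, which overlaps its exons on the same strand, so that the estimated counts of this pair are uncertain. Gm21970 itself was listed at no more than 58.7 in any of the 6 libraries.

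The ligand genes of TGF-beta did not move together. Tgfb1, which encodes the main isoform made by immune cells (chr7:25687002-25705077, plus strand), was at 762, 976 and 628 in CX3CR1- and at 1015, 1380.1 and 1071 in CX3CR1+ replicates 1, 2 and 3. The populations did not overlap, but CX3CR1- replicate 2 and CX3CR1+ replicate 1 lay close together. The log2FC of Tgfb1 was -0.56 (SE 0.21) and passed neither threshold (adjusted p = 0.0791 in limma after Benjamini-Hochberg correction).

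Tgfb2, the gene of an isoform known from epithelial and stromal cells (chr1:186622792-186705989, minus strand), was at 304, 167 and 171 in CX3CR1- and at 59.4, 27.2 and 65.1 in CX3CR1+ replicates 1, 2 and 3. CX3CR1- replicate 1 was the highest library, CX3CR1+ replicate 2 the lowest, and the populations did not overlap. The means were 214 ± 77.7 and 50.6 ± 20.46 (SD, n = 3 each), which is 4.23-fold higher in CX3CR1- cells, with a log2FC of 2.10 (SE 0.39, adjusted p = 0.00304 in limma after Benjamini-Hochberg correction). Gm29491 overlaps exons of Tgfb2 on the opposite strand, and 1.31% of the 31-mers of Tgfb2 also occur in other genes.

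Tgfb3, the gene of the remaining isoform (chr12:86056745-86079041, minus strand), was at 172, 34.0 and 84.8 in CX3CR1- and at 59.2, 65.6 and 48.2 in CX3CR1+ replicates 1, 2 and 3. The CX3CR1- libraries spanned the range of the CX3CR1+ libraries, with replicate 1 highest and replicate 2 lowest. The log2FC of 0.47 (SE 0.51) was not called (adjusted p = 0.559 in limma after Benjamini-Hochberg correction, exact permutation p = 0.6), and it was -0.088 without CX3CR1- replicate 1 and 1.07 without CX3CR1- replicate 2. Gm37804 and Gm48008 overlap exons of Tgfb3 on the opposite strand, and 9.96% of its 31-mers also occur in other genes, which makes its values less certain.

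Both receptor genes of TGF-beta were lower in CX3CR1- cells, with the smallest SE among the 6 called genes. Tgfbr1, the gene of the type I receptor kinase (chr4:47353222-47414931, plus strand), was at 264, 286 and 359 in CX3CR1- and at 2276, 1933 and 2261 in CX3CR1+ replicates 1, 2 and 3. The populations were far apart, and the means of 303 ± 49.97 and 2157 ± 194 (SD, n = 3 each) differed 7.12-fold. It had a log2FC of -2.84 (SE 0.18, adjusted p = 6.17e-06, limma with Benjamini-Hochberg correction).

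Tgfbr2, the gene of the type II receptor that binds the ligand (chr9:116084293-116175360, minus strand), was at 571, 585 and 555 in CX3CR1- and at 2328, 2277 and 2087 in CX3CR1+ replicates 1, 2 and 3. The libraries of each population lay close together and the populations did not overlap. The means were 570.3 ± 14.7 and 2231 ± 127 (SD, n = 3 each), a 3.91-fold difference. The limma fit gave a log2FC of -1.96 (SE 0.15, adjusted p = 1.37e-05, limma with Benjamini-Hochberg correction).

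Since both receptor genes moved together, the 250 bases before their annotated starts are shown, from the RefSeq promoter table (GRCm38.p6). Of the 10 genes, 5 had an entry there (Tgfb1, Tgfb2, Tgfbr1, Tgfbr2 and Itgb8). The windows were searched on both strands for AGGAAG (a core bound by PU.1 and other ETS factors), CAGAC (a SMAD element) and CCAAT (the box bound by NF-Y). Capitals mark CCAAT or its reverse complement ATTGG, which was singled out after the search because both windows hold 2 copies. The window of Tgfbr1 is chr4:47352972-47353221 (plus strand) and that of Tgfbr2 is chr9:116175364-116175613 (minus strand).
Tgfbr1: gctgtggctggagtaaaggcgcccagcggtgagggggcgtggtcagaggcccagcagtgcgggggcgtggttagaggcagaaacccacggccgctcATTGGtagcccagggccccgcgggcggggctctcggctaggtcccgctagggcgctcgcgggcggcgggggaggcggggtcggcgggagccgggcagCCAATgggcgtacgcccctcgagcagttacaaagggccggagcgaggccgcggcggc
Tgfbr2: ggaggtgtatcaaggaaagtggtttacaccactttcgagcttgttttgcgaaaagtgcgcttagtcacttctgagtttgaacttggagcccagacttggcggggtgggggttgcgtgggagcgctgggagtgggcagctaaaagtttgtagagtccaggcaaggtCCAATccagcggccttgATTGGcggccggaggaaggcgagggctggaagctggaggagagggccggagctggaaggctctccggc

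The window of Tgfbr2 also holds 1 AGGAAG and 1 CAGAC, and that of Tgfbr1 holds neither. The windows of Tgfb2, which was called higher, and of Itgb8 hold 1 CCAAT each, and that of Tgfb1 holds none. Among 32841 promoter windows of this length, 33.9% hold CCAAT and 10.1% hold 2 or more copies of it, 29.5% hold AGGAAG and 42.2% hold CAGAC on either strand. A second, downstream window listed for Tgfbr1 held 1 AGGAAG, 1 CAGAC and no CCAAT. These matches describe the sequence only.

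Smad7, the gene of the inhibitory SMAD (chr18:75367529-75395935, plus strand), was at 79.9, 381 and 53.1 in CX3CR1- and at 134, 143 and 106 in CX3CR1+ replicates 1, 2 and 3. CX3CR1- replicate 2 was the highest of the 6 libraries, while the other CX3CR1- libraries were the lowest. The SD was 182 over the CX3CR1- and 19.5 over the CX3CR1+ libraries. The log2FC of -0.11 (SE 0.59) was not called (adjusted p = 0.920 in limma after Benjamini-Hochberg correction, exact permutation p = 1), and it was -0.95 without CX3CR1- replicate 2 and 0.46 without CX3CR1- replicate 3.

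Itgb8, the gene of the integrin subunit that pairs with alpha V to release active TGF-beta (chr12:119158022-119238802, minus strand), was at 4.46, 24.2 and 9.38 in CX3CR1- and at 10.3, 6.49 and 3.63 in CX3CR1+ replicates 1, 2 and 3. The populations overlapped, CX3CR1- replicate 2 was highest, and CX3CR1+ replicate 3 was at or under the level of 3 reads. Its mean over all libraries, 9.75, was just under the filter. With no filter the log2FC was 0.62 (SE 0.71, adjusted p = 0.607 in limma after Benjamini-Hochberg correction). The gene also passed the filter without CX3CR1- replicate 1 (log2FC of 1.14) and without CX3CR1+ replicate 2 or 3, and was not called there.

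Levels were compared between genes per kb of transcript, with the median length of the coding transcripts. In CX3CR1+ cells Tgfbr1 stood first at 920 ± 82.7 per kb (SD, n = 3), followed by Il10 at 752 ± 290, Tgfb1 at 531 ± 90.4, Il10rb at 454 ± 59.3, Tgfbr2 at 386 ± 21.97 and Il10ra at 350 ± 26.9. For each pair of neighbours among these, the ranges of mean ± SD overlapped. Smad7 at 95.6 ± 14.6 per kb was apart from them, and Tgfb3 at 17.0, Tgfb2 at 11.8 and Itgb8 at 0.811 per kb were lowest. In CX3CR1- cells Tgfb1 led alone at 363 ± 80.8 per kb. Tgfbr1 at 129, Smad7 at 128 ± 136, Il10ra at 120, Tgfbr2 at 98.6 and Il10rb at 97.3 per kb followed, and then Tgfb2 at 49.7 ± 18.1, Il10 at 30.8 ± 18.3 and Tgfb3 at 28.7 ± 20.7 per kb (SD, n = 3 each). Within each of these 2 sets the ranges of neighbours overlapped, and Itgb8 was last at 1.51. Il10 thus stood at place 2 of 10 in CX3CR1+ and at place 8 of 10 in CX3CR1- cells, but the top place in CX3CR1+ cells was not settled, as Il10 was first at 915 per kb, against 894 for Tgfbr1, without CX3CR1+ replicate 1. With the length of the longest coding transcript, an alternative chosen after the data had been seen, Il10 was first in CX3CR1+ cells, and Tgfbr1 moved to place 4 there at 375 per kb and from place 2 to place 5 in CX3CR1- cells at 52.6 per kb, while Smad7 moved from place 3 to place 7 in CX3CR1- cells at 40.0 per kb and kept place 7 in CX3CR1+ cells at 29.9 per kb. Without CX3CR1- replicate 2, another alternative chosen after the data had been seen, Smad7 was at place 7 with 49.7 per kb, Il10 at place 9 with 20.2 and Itgb8 at place 10 with 0.823, and without CX3CR1- replicate 1 Tgfb3 was at place 9 with 17.5 per kb.

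The genes called lower moved in the same direction as macrophage markers. Apart from Cx3cr1, whose direction the sort fixed, all 10 macrophage markers were called lower in CX3CR1- cells, with a median log2FC of -2.41. Their summed values were 9326, 10996 and 10933 in CX3CR1- and 53361, 54981 and 49463 in CX3CR1+ replicates 1, 2 and 3, and Mrc1 was the most abundant in both. Cx3cr1 itself, the sort marker, was at 23.2, 18.9 and 28.5 in CX3CR1- and at 371, 380.4 and 347 in CX3CR1+ replicates 1, 2 and 3, in the direction of the labels. The log2FC of Il10 was more negative than those of all 10 markers, with a difference of -2.23 to their median that was not tested. Tgfbr1 was more negative than 8 of the 10, Il10rb than 2, Tgfbr2 than 1 and Il10ra than none. Their part in the result was not tested.

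Beyond the 10 genes, 69 genes of both pathways were examined in lists by role, of which 57 were tested. Of these, 9 (15.8%) were called higher and 13 (22.8%) lower in CX3CR1- cells, with a median log2FC of -0.26, where 12.2% of all tested genes were called higher and 8.15% lower. The counts of the single lists below stand against these same 2 shares.

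**Figure D2:**
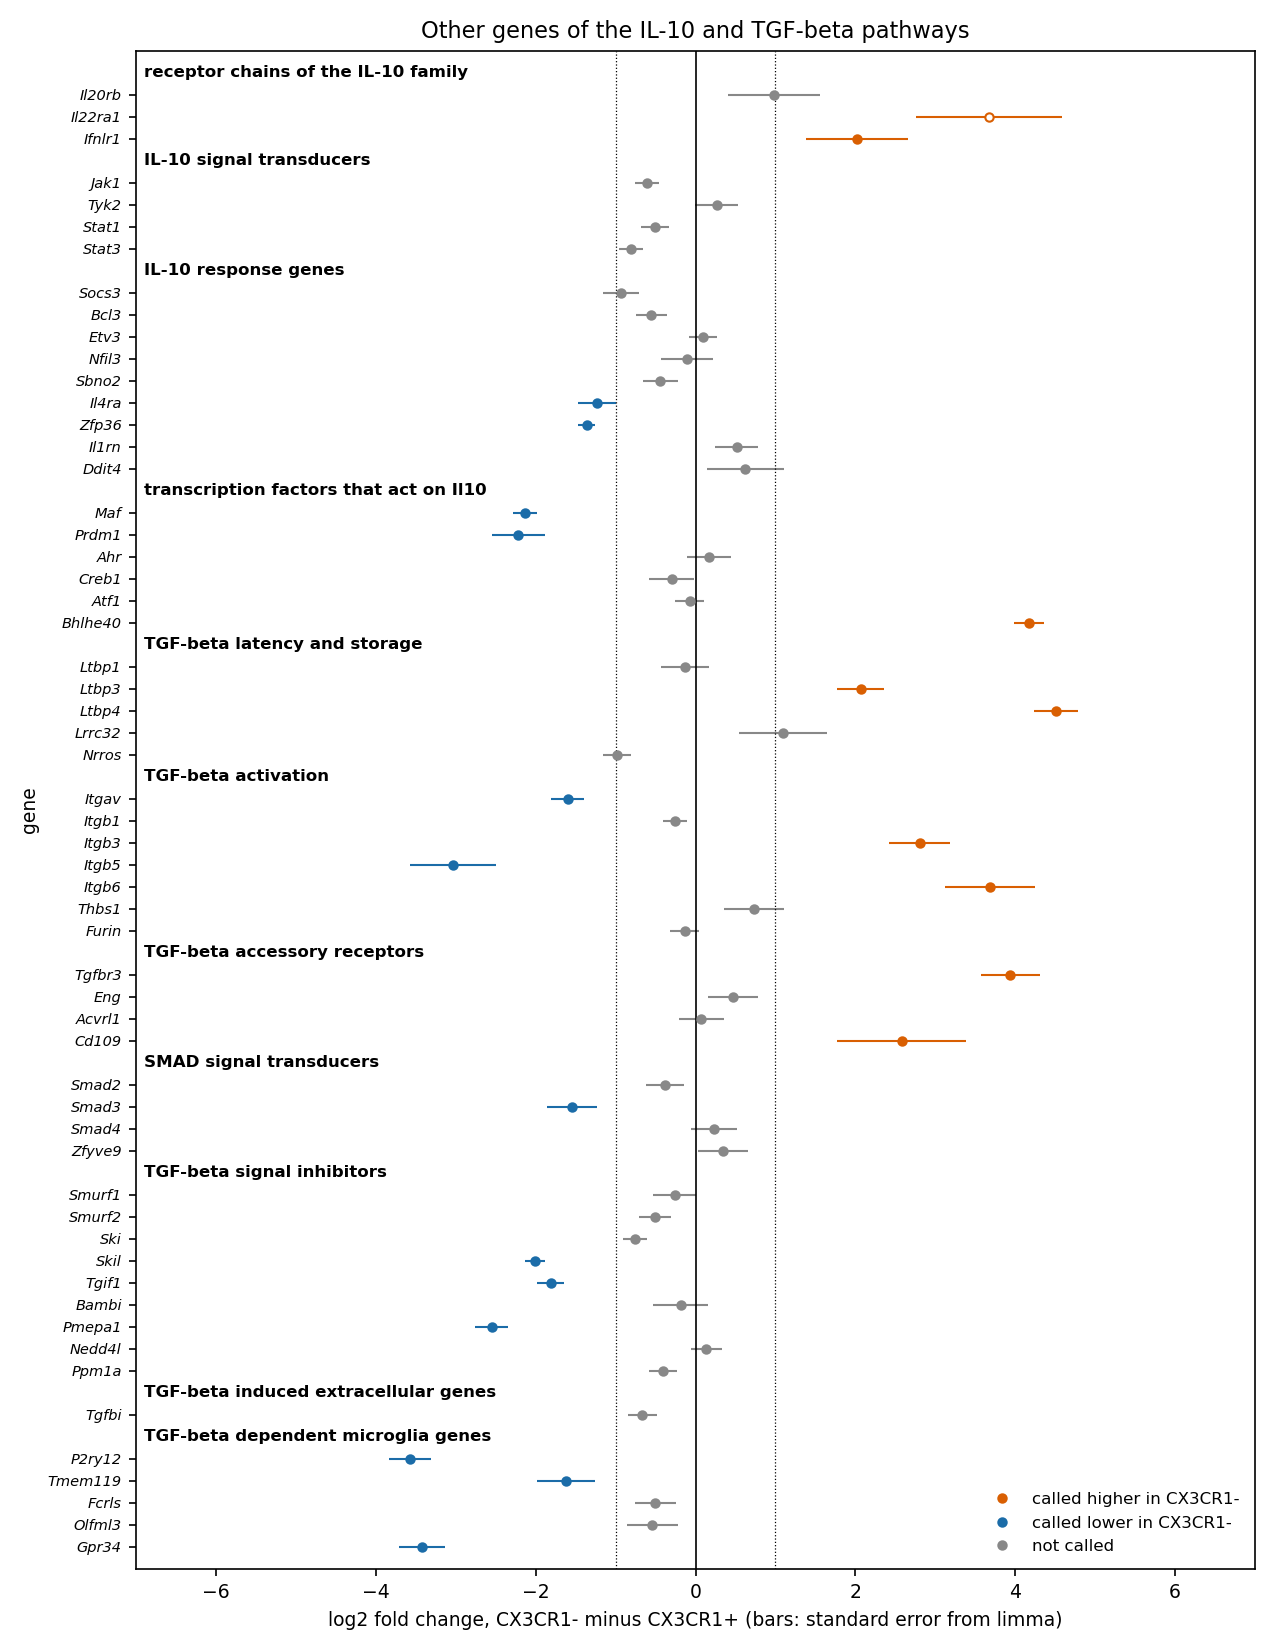
Log2 fold changes (CX3CR1- minus CX3CR1+) of the 57 tested pathway genes, grouped by role, with the SE from limma as bars and dotted lines at -1 and 1. Genes called higher (9) are orange, genes called lower (13) are blue and the others are grey, and the open point is Il22ra1, for which the CX3CR1+ libraries all lie at or under 3 reads.

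Among the IL-10 family cytokines, Il20 and Il24 were the genes listed, neither passed the filter, and they are named after their values were seen. Il24 was listed at 0 in 5 libraries and at 17.9 in CX3CR1- replicate 2, and Il20 was at 9.39 in CX3CR1- replicate 1. Of the receptor chains of the family, 2 of 3 tested genes were called higher and none lower. Both, Il22ra1 and Ifnlr1, had a mean under 10 in CX3CR1+ cells and passed the filter through their CX3CR1- values, so that the filter had a part in this count. Il22ra1, the IL-22 receptor chain typical of epithelial cells, was at 29.2, 39.3 and 6.98 in CX3CR1- replicates 1, 2 and 3 and at 3 reads or fewer in all CX3CR1+ libraries, which is at least 9.33-fold higher against the mean of the library floors. Ifnlr1, the specific chain of the interferon lambda receptor, had a log2FC of 2.02 (adjusted p = 0.0441 in limma after Benjamini-Hochberg correction). Its call was lost in 7 of the alternatives, 5 of which left out a library (any but CX3CR1+ replicate 3), while the others were the block of adjacent library numbers (adjusted p = 0.0696) and quantile normalization. The call of Il22ra1 was lost without CX3CR1+ replicate 2 and after quantile normalization (adjusted p = 0.0521 and 0.0711 in limma), and without CX3CR1- replicate 1 or 2 the gene fell under the filter and was not tested. Il20rb was at 25.3 ± 11.2 and 13.2 ± 8.87 (SD, n = 3 each) and was not called.

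None of the 4 tested signal transducers of IL-10 was called by limma, and 3 of them had an unadjusted p under 0.05. The populations did not overlap for 3 of the 4 genes, against 40.0% of all tested genes. Stat3, the main transcription factor of the IL-10 receptor, was at 1926, 1584 and 1545 in CX3CR1- and at 2901, 3035 and 2883 in CX3CR1+ replicates 1, 2 and 3, without overlap. Its log2FC of -0.81 (adjusted p = 0.00281) and that of the kinase gene Jak1, -0.61 (adjusted p = 0.0140, both in limma after Benjamini-Hochberg correction), missed the fold threshold, and after quantile normalization they were -0.35 and -0.22 (adjusted p = 0.101 and 0.279) and missed both thresholds.

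Of 9 genes known to respond to IL-10, 2 were called lower and none higher, with a median log2FC of -0.44. Zfp36, whose protein promotes decay of cytokine mRNAs, was at 22526, 23155 and 22136 in CX3CR1- and at 54165, 60469 and 60124 in CX3CR1+ replicates 1, 2 and 3. In limma the log2FC was -1.36 (SE 0.11, adjusted p = 2.02e-05, limma with Benjamini-Hochberg correction). Il4ra, a chain of the IL-4 receptor, had a log2FC of -1.23 (adjusted p = 0.00406), which fell short of the fold threshold without CX3CR1- replicate 2 at -0.97 and after quantile normalization at -0.95. Socs3, a feedback inhibitor of STAT3 signalling, was at 924, 1099 and 1327 in CX3CR1- and at 1502, 2377 and 2623 in CX3CR1+ replicates 1, 2 and 3, a log2FC of -0.93 (adjusted p = 0.0143) that missed the fold threshold. It passed without CX3CR1- replicate 3 at -1.06 and without CX3CR1+ replicate 1 at -1.18. Etv3 was at 1824 ± 289 and 1712 ± 252 (SD, n = 3 each).

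Of 6 transcription factor genes that act on Il10, 2 were called lower and 1 higher. Maf, an activator of Il10 transcription in macrophages and T cells, was at 864, 755 and 736 in CX3CR1- and at 3665, 3101 and 3578 in CX3CR1+ replicates 1, 2 and 3, a log2FC of -2.13 (SE 0.15, adjusted p = 9.82e-06 in limma after Benjamini-Hochberg correction). Prdm1, which encodes BLIMP-1, was at 117, 221 and 214 in CX3CR1- and at 534, 1196 and 880.3 in CX3CR1+ replicates 1, 2 and 3, a log2FC of -2.22 (adjusted p = 8.79e-04). Bhlhe40, a repressor of Il10, went the other way, at 1803, 2136 and 2006 in CX3CR1- and at 97.4, 106 and 123 in CX3CR1+ replicates 1, 2 and 3. The populations did not overlap for these 3 of the 6 genes, against 40.0% of all tested genes. The log2FC of Bhlhe40 was 4.18 (SE 0.19, adjusted p = 1.45e-06 in limma after Benjamini-Hochberg correction). Creb1 at -0.30 and Atf1 at -0.074 on the log2 scale were not called.

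Of 5 tested genes for latency and storage of TGF-beta, 2 were called higher and none lower, where 12.2% of all tested genes were called higher. Ltbp4, a matrix protein that binds latent TGF-beta, was at 557, 392 and 508 in CX3CR1- and at 19.0, 24.9 and 17.2 in CX3CR1+ replicates 1, 2 and 3, a log2FC of 4.51 (SE 0.28, adjusted p = 4.89e-06 in limma after Benjamini-Hochberg correction). Ltbp3, of the same family, had a log2FC of 2.07. Nrros, which anchors latent TGF-beta on myeloid cells, was at 1565, 1909 and 1521 in CX3CR1- and at 2792, 4017 and 3133 in CX3CR1+ replicates 1, 2 and 3. Its log2FC of -0.98 (adjusted p = 0.00257) fell just short of the fold threshold, which it passed in 4 of the alternatives. Lrrc32, its relative on regulatory T cells and platelets, was at 211 ± 121 and 98.3 ± 52.8 (SD, n = 3 each) and was not called (log2FC of 1.09, adjusted p = 0.189), whereas with adjacent library numbers as a block it was called higher (adjusted p = 0.0221 in limma).

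The genes for activation of TGF-beta, 5 integrin genes with Thbs1 and Furin, were split, with 2 of 7 called higher and 2 lower, all 4 of them integrin genes. Itgav, the alpha V subunit that the activating integrins share, had a log2FC of -1.60 (adjusted p = 3.69e-04 in limma after Benjamini-Hochberg correction). Itgb5 was at 42.6, 27.7 and 174 in CX3CR1- and at 530.2, 463 and 489.9 in CX3CR1+ replicates 1, 2 and 3, a log2FC of -3.04, with CX3CR1- replicate 3 well above the other CX3CR1- libraries, and one of -3.81 without that library. Itgb6, an epithelial subunit, was at 34.2, 119 and 50.5 in CX3CR1- and between 3.43 and 3.98 in CX3CR1+ libraries, a log2FC of 3.69, and it passed the filter through its CX3CR1- values. Itgb3 had a log2FC of 2.81, while Itgb1 at -0.25 and Thbs1 at 0.73 were not called, although Thbs1 was called without CX3CR1- replicate 1 at 1.16.

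Among the accessory receptors 2 of 4 genes were called higher and none lower, of which Cd109 had a mean under 10 in CX3CR1+ cells and passed the filter through CX3CR1- replicate 2. Tgfbr3, which encodes the co-receptor betaglycan that presents TGF-beta2 in particular, was at 189, 184 and 210.3 in CX3CR1- and at 19.4, 9.33 and 8.67 in CX3CR1+ replicates 1, 2 and 3. This gave a log2FC of 3.94 (SE 0.37, adjusted p = 4.56e-05, limma with Benjamini-Hochberg correction), opposite in direction to Tgfbr1 and Tgfbr2. Cd109 was at 15.3, 94.4 and 13.9 in CX3CR1- and no higher than 7.07 in CX3CR1+ libraries, and its call (log2FC of 2.58, adjusted p = 0.0411) was lost in 6 of the alternatives, among them leaving out any 1 of the CX3CR1+ libraries, and without CX3CR1- replicate 2 the gene was not tested. Acvrl1 and Eng, receptors known from endothelial cells, were not called.

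Of 4 SMAD transducer genes, 1 was called lower and none higher. Smad3 was at 79.2, 143 and 65.8 in CX3CR1- and at 220.5, 260.01 and 330.3 in CX3CR1+ replicates 1, 2 and 3, a log2FC of -1.55 (adjusted p = 0.00556 in limma after Benjamini-Hochberg correction). Smad2 at -0.39 and Smad4 at 0.23 were not called. The populations did not overlap for Smad3, and CX3CR1- replicate 2 was again the highest of its population.

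Of 9 tested inhibitors of the TGF-beta signal other than Smad7, 3 were called lower and none higher, where 8.15% of all tested genes were called lower. Skil, a corepressor that the signal itself induces, was at 2171, 2149 and 2158 in CX3CR1- and at 8272, 8731 and 9087 in CX3CR1+ replicates 1, 2 and 3, a log2FC of -2.01 (SE 0.13, adjusted p = 5.59e-06 in limma after Benjamini-Hochberg correction). Pmepa1, another induced inhibitor, was at 267, 192 and 312 in CX3CR1- and at 1500.4, 1423 and 1527 in CX3CR1+ replicates 1, 2 and 3, a log2FC of -2.55 (adjusted p = 1.96e-05). Tgif1 had a log2FC of -1.81. Ski at -0.75 (adjusted p = 0.00489) and Smurf2 at -0.50 were not called. The populations did not overlap for these 5 genes, and for 7 of the 9 tested inhibitors in all, against 40.0% of all tested genes.

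Tgfbi, an extracellular gene induced by TGF-beta, was at 828, 1043 and 713 in CX3CR1- and at 1290, 1481 and 1285 in CX3CR1+ replicates 1, 2 and 3. Its log2FC of -0.66 (adjusted p = 0.0236 in limma after Benjamini-Hochberg correction) missed the fold threshold, so that the gene was not called.

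Of 5 tested genes whose expression in microglia depends on TGF-beta, 3 were called lower and none higher, where 8.15% of all tested genes were called lower, with a median log2FC of -1.62. P2ry12, a purinergic receptor, was at 35.4, 56.9 and 37.3 in CX3CR1- and at 558, 549.8 and 439.8 in CX3CR1+ replicates 1, 2 and 3, a log2FC of -3.57 (SE 0.26, adjusted p = 1.21e-05 in limma after Benjamini-Hochberg correction). Gpr34 was at 21.4, 19.3 and 20.5 in CX3CR1- and at 228, 283 and 187 in CX3CR1+ replicates 1, 2 and 3, a log2FC of -3.43. Tmem119 had one of -1.62. Fcrls was at 1494, 2067 and 922 in CX3CR1- and at 2042, 2108 and 1882 in CX3CR1+ replicates 1, 2 and 3 and was not called, like Olfml3 at -0.54. The 3 called genes moved in the same direction as the macrophage markers.

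Markers of other cell types differed between the populations as well, and their part in the results above was not tested. Of 9 markers of conventional dendritic cells, 8 were called higher in CX3CR1- cells, with summed values of 3662, 4229 and 3840.2 in CX3CR1- and of 282, 285 and 329.9 in CX3CR1+ replicates 1, 2 and 3. Clec9a was the most abundant of them in CX3CR1- and Batf3 in CX3CR1+ cells. Itgae, which was called, had a mean under 10 in CX3CR1+ cells and passed the filter through its CX3CR1- values. All 8 epithelial markers were called higher, with summed values of 26921, 25113 and 15795 in CX3CR1- and of 50.4, 26.2 and 23.1 in CX3CR1+ replicates 1, 2 and 3, led by Fabp2 in CX3CR1- and Vil1 in CX3CR1+ cells, while Epcam, Krt8 and Krt20 were at 3 reads or fewer in every CX3CR1+ library. Each of them but Vil1 had a mean under 10 in CX3CR1+ cells. These passed the filter through their CX3CR1- values, so that the filter had a part in this count. All 7 fibroblast markers were called higher, with sums of 7262, 4149 and 12219.9 against 319.7, 247 and 185, led by Dcn in both. Pdgfrb among them had a mean under 10 in CX3CR1+ cells and passed the filter through its CX3CR1- values. Of 7 B and plasma cell markers 6 were called higher, with sums of 1758, 3847 and 1879 against 75.4, 92.5 and 99.3, led by Jchain in CX3CR1- and Cd79b in CX3CR1+ cells, and Mzb1 was listed at 0 in all CX3CR1+ libraries. Cd79a, Mzb1 and Sdc1 had means under 10 in CX3CR1+ cells. They passed the filter through their CX3CR1- values, so that the filter had a part in this count. CX3CR1- replicate 2 had the highest Il10, Il10ra, Tgfb1, Tgfbr2, Smad7 and Itgb8 of its population, and the lowest Il10rb, Tgfb2 and Tgfb3. Among the CX3CR1- libraries it had the highest sums of macrophage, dendritic cell, monocyte, B and plasma cell and T, NK and innate lymphoid cell markers. It had the lowest sums of fibroblast, smooth muscle, endothelial, neuron and glia, and granulocyte and mast cell markers, although Siglecf of the last list was highest in it.

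Of 5 monocyte markers 4 were called higher, with Ccr2 leading and sums from 1740 to 3591 in CX3CR1- and from 749.8 to 835 in CX3CR1+ libraries. Of 5 tested markers of T, NK and innate lymphoid cells 3 were called higher and 1, Cd4, lower, with sums from 458 to 581 and from 659.8 to 765, led by Il7r in CX3CR1- and Cd4 in CX3CR1+ cells, and Nkg7 was at 3 reads or fewer in every CX3CR1+ library. Of 7 granulocyte and mast cell markers 2 were in the deposited table, and both were called higher, led by Kit, with sums from 194 to 539 and from 19.7 to 43.9. The other, Siglecf, had a mean under 10 in CX3CR1+ cells. It passed the filter through its CX3CR1- values, so that the filter had a part in this count. Of 6 endothelial markers 4 were called higher and 1 lower, with sums from 1195 to 1615 and from 709.5 to 871, led by Lyve1 in CX3CR1- and Pecam1 in CX3CR1+ cells. Cdh5, which was called higher, had a mean under 10 in CX3CR1+ cells. This gene passed the filter through its CX3CR1- values, so that the filter had a part in this count. Of 5 tested neuron and glia markers 3 were called higher, led by S100b in CX3CR1- and Elavl4 in CX3CR1+ cells, with sums from 112 to 398 and from 56.1 to 85.5. Sox10, which was called higher, had a mean under 10 in CX3CR1+ cells. This gene passed the filter through its CX3CR1- values, so that the filter had a part in this count. Of 3 tested mesothelial markers 2 were called higher, led by Krt19, which is also an epithelial marker, and by Upk3b in CX3CR1+ cells, with sums from 162 to 382 and from 13.0 to 38.8. Both called genes, Wt1 and Krt19, had means under 10 in CX3CR1+ cells, while Upk3b was not called. They passed the filter through their CX3CR1- values, so that the filter had a part in this count. None of 6 smooth muscle markers was called by limma and 0 had an unadjusted p under 0.05, with sums from 918 to 2675 in CX3CR1- and from 1954 to 2745 in CX3CR1+ libraries, led by Myh11 and Acta2.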

How the data were processed

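Bulk RNA-seq libraries were prepared by the authors from sorted cells, pseudoaligned to mm10 transcripts (another GENCODE release than the one used here) with Kallisto, imported with tximport as estimated counts, summed per gene and normalized with DESeq2. The deposited values are this normalized signal. They were not used as counts, since per library between 42.4 and 44.6% of non-zero entries were whole multiples (within 0.01) of the step taken as 1 read. The approximate reads were obtained from this step, and smaller non-zero values also occurred. Libraries were grouped by the sample labels.

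Genes with a mean of at least 10 were tested with limma 3.58.1 in R 4.3.3 (two-sided, intensity trend in the prior) after a log2(value + 1) transform. Adjusted p-values are by Benjamini-Hochberg, and they stand beside exact permutation tests. The test was checked on simulated data. Fold changes on this scale understate changes of low genes. Positions, transcript lengths and shared 31-mers came from GENCODE M21 (GRCm38), promoters from RefSeq. Plots were drawn with matplotlib 3.10.9.

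The members and lists were chosen with earlier results of these data known. Named genes are all members, from each pathway list up to 4 called genes per direction by p and up to 2 others with the highest mean, and from each marker list the most abundant gene and genes at 3 reads or fewer throughout a population. Cx3cr1 was added as the sort marker, and Il20, Il24, Nfil3, Sbno2 and Nedd4l were named after their values had been seen. Of the listed genes, 4 are not reported here, and counts, medians and sums leave them out. The promoter motifs were chosen after the fold changes had been seen. The alternatives were other pseudocounts, filters, scalings, no trend, library weights, a block and leaving out each library.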

Additional observations from a re-analysis of the deposited data

How the results depend on the processing

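Across 16 alternatives, the same 5 genes (Il10, Il10ra, Il10rb, Tgfbr1 and Tgfbr2) were called lower and Tgfb2 was called higher in CX3CR1- cells. These were pseudocounts of 0.5 and 10, no filter, a minimum mean of 50, scaling by median-of-ratios, quantile and non-mitochondrial scaling, no intensity trend, library weights, a block of adjacent library numbers and each library left out. Over them the log2 fold change ranged from -5.08 to -4.32 for Il10, from -1.86 to -1.36 for Il10ra, from -2.46 to -2.02 for Il10rb, from -2.97 to -2.60 for Tgfbr1, from -2.01 to -1.64 for Tgfbr2 and from 1.71 to 2.32 for Tgfb2. Of 17812 tested genes 3628 were called, and 2413 of 10208 at a minimum mean of 50, where fewer genes were tested. Of the 3628 genes, 2177 were called higher and 1451 lower, against 1716 and 1674 with quantile normalization and 2520 and 1113 with non-mitochondrial scaling. Leaving out single libraries gave from 2771 to 3869 called genes, and the number of members called did not change.

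Quantile normalization shifted the median over the tested genes to -0.15 (log2) and scaling to non-mitochondrial genes shifted it to 0.17. Relative to it, Il10 was at -4.52 and -4.64, Il10ra at -1.22 and -1.59, and Tgfb2 at 2.08 and 2.09. Tgfb1 was at -0.074 and -0.56 relative to it, and was not called under any of the alternatives.

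Directions changed for genes that were not called, and the cause was not tested. Smad7 was at 0.064 with non-mitochondrial scaling and ranged from -0.95 to 0.46 with a library left out, and Tgfb3 ranged from -0.088 to 1.07. With quantile normalization Creb1 was at 0.0060, Atf1 at 0.11, Itgb1 at 0.14 and Acvrl1 at -0.052, and with non-mitochondrial scaling Atf1 was at 0.10. With a library left out, Acvrl1 ranged from -0.15 to 0.24, Atf1 from -0.15 to 0.033, Creb1 from -0.52 to 0.063, Etv3 from -0.030 to 0.19 and Smad4 from -0.033 to 0.52. Among the named pathway genes, calls were lost in 17 of 664 comparisons (Cd109, Ifnlr1, Il22ra1 and Il4ra) and gained in 8 (Lrrc32, Nrros, Socs3 and Thbs1). In some alternatives named genes fell under the filter and were not tested, which are Il22ra1, Ifnlr1, Il20rb, Itgb6 and Cd109 at a minimum mean of 50, Il22ra1 without CX3CR1- replicate 1 or 2, and Cd109 without CX3CR1- replicate 2. The labels hold no numbers shared between the populations that would pair libraries. With adjacent library numbers as a block, each holding 1 library of either population, Ifnlr1 lost its call (limma, Benjamini-Hochberg adjusted p = 0.0696) and Lrrc32 gained one.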

Other observations

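A few values stood out after they had been seen and were not tested. In both populations replicate 1 had the lowest Il10, Prdm1, Socs3, Nfil3 and Sbno2, and these 2 libraries have adjacent library numbers. Nfil3 was at 256, 509 and 623 and Sbno2 at 655, 966 and 1147 in CX3CR1+ replicates 1, 2 and 3. In the CX3CR1- libraries Nfil3 was at 309, 497 and 428 and Sbno2 at 609, 704 and 675, and neither gene was called between the populations.

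Nedd4l, a ubiquitin ligase gene of the inhibitor list, differed little between libraries (SD of 3.45 in CX3CR1- and 3.48 in CX3CR1+, n = 3 each), at 279, 283 and 276 in CX3CR1- and 257, 256 and 250.1 in CX3CR1+ replicates 1, 2 and 3. The populations did not overlap, and the log2 fold change of 0.14 was not called.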
